A study of Rattus norvegicus with 8 samples.

Results

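Axon guidance and adhesion genes were examined in newborn rat retinal cells that had been made to overexpress Klf4, a zinc-finger transcription factor of the Kruppel-like family. The 33 genes were a list of rat symbols, grouped by family into Robo/Slit, netrin, ephrin, semaphorin and immunoglobulin (Ig) adhesion genes. A gene was found on the array where a probe's accession was a RefSeq transcript of that symbol. This gave a probe for 27 of the 33, among 16581 gene symbols on the array, and 25 of the 27 were bright enough to test among 29984 genes and unnamed features. The rule itself uses no measured value, but the list was chosen with earlier results of these data known. Counts of members against the background are therefore no independent test.

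The tested cells were GFP-positive cells from Lister hooded rat retinas taken on postnatal day 0, electroporated with a plasmid encoding Klf4 and kept as explants for 39 h (4 arrays, replicates 2 to 5). The control cells were treated alike but received a control plasmid (4 arrays, replicates 2 to 5). Pulses were of 25 V and 50 ms in both groups, and the fluorescent cells were sorted after dissociation, so each array reads a mixture of those retinal cell types that took up plasmid. The labels name neither the promoter of the plasmids nor whether replicates came from separate animals or electroporations. A p-value here therefore weighs a difference against the spread of these samples, and that spread may be technical.

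Axons are steered by secreted and membrane-bound cues that growth cones read through surface receptors. Slits act on Robo receptors, netrins on Dcc and Unc5 receptors, ephrins on Eph kinases, and class 3 semaphorins on neuropilins paired with plexins. Ig-family adhesion molecules hold axons to each other and to their substrate. In the retina these genes are known for guiding ganglion cell axons to the optic disc and, through Eph gradients, for the topographic map they form in the brain.

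All values are background-subtracted signals on a log2 scale, relative to the 75th percentile of the same array, so 0 is the 75th percentile and 1 unit is a doubling. Differences are Klf4 minus control from limma, two-sided, adjusted over the 29984 genes and features. The 75th percentile of the raw signal ran from 2399 to 5370 between arrays, and 72.1% (Klf4 replicate 4) to 86.5% of gene spots were well above background. Both arrays numbered 4 lacked the software's in-range quality result, and both numbered 5 came from a second scan. Klf4 arrays lay in columns 2 and 4 of the slide and controls in columns 1 and 3, so column and group cannot be told apart. The retinal transcription factor genes Pax6, Rax, Six6, Otx2 and Crx were well above background on all 8 arrays. The Klf4 probe read -3.00 ± 0.86 in Klf4 cells and -3.27 ± 0.62 in control cells (SD, n = 4 each), and since the sources do not place it inside or outside the plasmid's insert, it is no check of the labels.

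No member passed an adjusted p of 0.05 in either direction (limma, 0 of 25). Over all genes and features 3.68% were called, 3.21% higher and 0.47% lower in Klf4 cells. At an unadjusted p under 0.05 there were 5 members. Slit1 and Efnb1 were on the higher side, where 6.63% of all features lay, and Slit2, Epha7 and Sema3a on the lower side, where 5.3% lay. Slit1 on the higher side and Slit2, Epha7 and Sema3a on the lower side had groups that did not overlap, against backgrounds of 5.7% and 4.44% (10.1% in all). Sema3a was bright enough to test through the control group alone, where it was higher. Its place in these counts is therefore no independent support. Of the 25 members 17 lay below 0, as did 61% of all features, and the median difference was -0.11 for the members and -0.07 for all features. Klf4 arrays varied more than controls for 20 of the 25, and for 63.9% of all features. In bulk samples such as these, fewer cells of a type and less RNA per cell cannot be told apart.

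**Figure D1:**
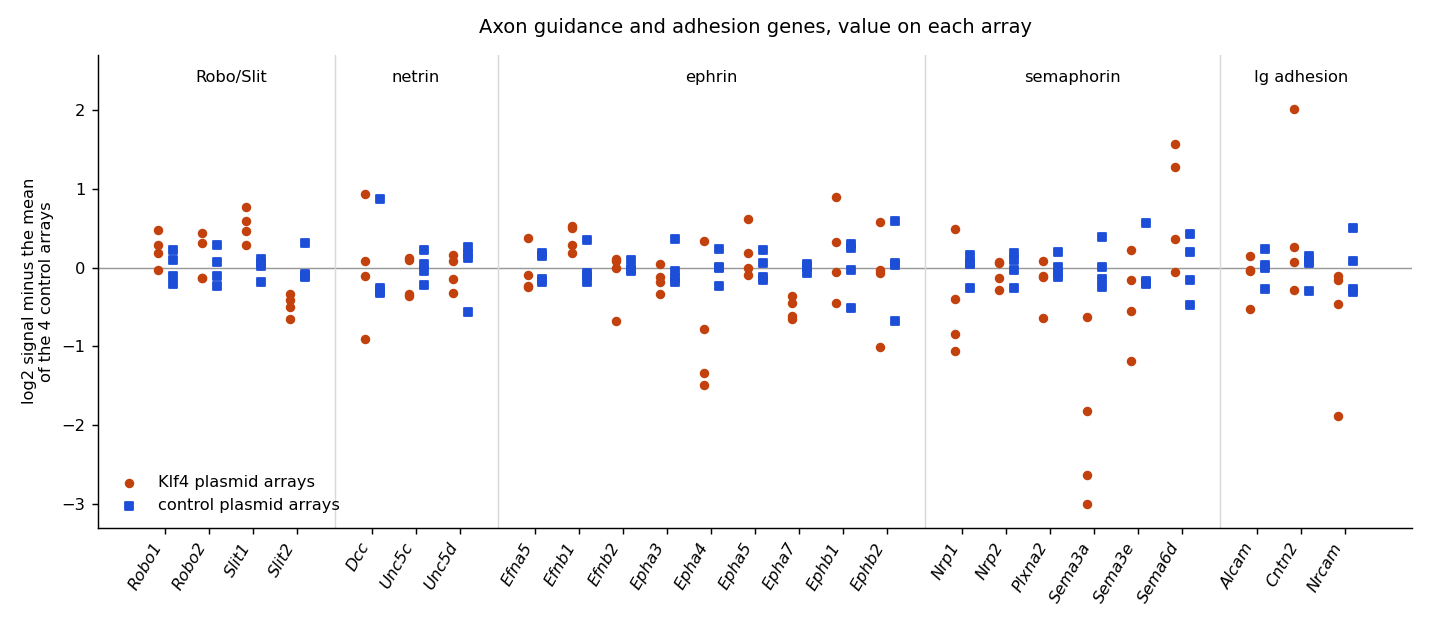
Values of the 25 tested members on each array, as log2 signal minus the mean of the 4 control arrays, by family, with Klf4 arrays as circles left of control arrays as squares. Slit1 in Klf4 cells sits above all controls and Slit2, Epha7 and Sema3a below all controls, while Cntn2 has 1 Klf4 array at 3.91 (on the scale of the text) apart from the other Klf4 arrays, at 1.61 to 2.15.

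The Robo/Slit family held 4 members, all tested. Slit1, which encodes a secreted repellent, read 1.67, 1.19, 1.49 and 1.37 on the Klf4 arrays, against 1.01, 0.92, 0.97 and 0.72 on the control arrays. Every Klf4 array was above every control array. The difference was 0.53 (SE 0.14, 95% interval 0.20 to 0.86, adjusted p = 0.112). Slit2, a second secreted Slit, read -3.07, -2.83, -2.75 and -2.92 in Klf4 cells, against -2.11, -2.50, -2.53 and -2.53 in control cells. Here every Klf4 array was below every control array, with control replicate 2 the highest. The difference was -0.48 (SE 0.15, interval -0.81 to -0.14, adjusted p = 0.172). A second Slit2 probe read -3.91, -3.82, -3.77 and -3.63 in Klf4 cells, against -2.54, -2.94, -3.45 and -2.81 in control cells, again without overlap, and differed by -0.85 (adjusted p = 0.0574 in a fit over 34726 probes). The 2 Slit genes thus lay on opposite sides of 0, and neither passed the threshold. Their receptors Robo1 and Robo2 differed by 0.23 (interval -0.13 to 0.59) and 0.12 (interval -0.31 to 0.55), with groups that overlapped. Within the first scan the Slit1 difference was 0.49 and within the second 0.66, while that of Slit2 was -0.50 in the first and -0.39 in the second.

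Of the 6 netrin family members 3 were tested, and none had an unadjusted p under 0.05. Dcc, the attractive netrin receptor, averaged -1.51 ± 0.75 in Klf4 cells and -1.51 ± 0.58 in control cells (SD, n = 4 each), with an interval of the difference from -0.94 to 0.94. This spread came with 1 high array in each group, replicate 5, at -0.58 in Klf4 cells and -0.64 in control cells. In Klf4 cells replicate 4 also lay low, at -2.41, against -1.43 and -1.62 on replicates 2 and 3. A second and dimmer Dcc probe differed by 0.62, with groups that overlapped (limma adjusted p = 0.600 in a fit over single probes). The repulsive netrin receptors Unc5c and Unc5d differed by -0.12 (interval -0.51 to 0.27) and -0.06 (interval -0.54 to 0.43). Ntn1, the classical secreted netrin, passed the above-background flag on 2 of the 4 Klf4 arrays, against 0 of the 4 control arrays. It averaged -6.08 in Klf4 cells and -7.82 in control cells and was too dim for the filter, so no fold is given. Ntng1, which encodes the membrane-anchored netrin G1, was not well above background on any array. Draxin, a secreted netrin-binding repellent, had no probe matched here and was not analysed here.

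The ephrin family was the largest, with 10 members, 9 of them tested. Epha7, an Eph receptor kinase for A-type ephrins, had the lowest p of all members. It read -3.41, -3.33, -3.58 and -3.62 in Klf4 cells, against -2.97, -2.95, -2.93 and -3.04 in control cells. All Klf4 arrays were below all control arrays, and the controls lay close together. The difference was -0.52 (SE 0.12, interval -0.79 to -0.25), a ratio of 1.43, with an adjusted p of 0.0565. Its other 3 probes differed by -0.70, -0.88 and -1.18, each with groups that did not overlap, and none of them passed the threshold (adjusted p = 0.120 to 0.380). The dimmest of these passed the above-background flag on 2 of 4 Klf4 arrays, against 4 of 4 control arrays, and so met the filter through the control group alone. Epha7 passed in 6 of 22 alternative settings. Without Klf4 replicate 4 its difference was -0.49 (adjusted p = 0.0477), with the scan as a block the adjusted p was 0.0285, and with normexp background correction the difference was -0.32 (adjusted p = 0.304).

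**Figure D2:**
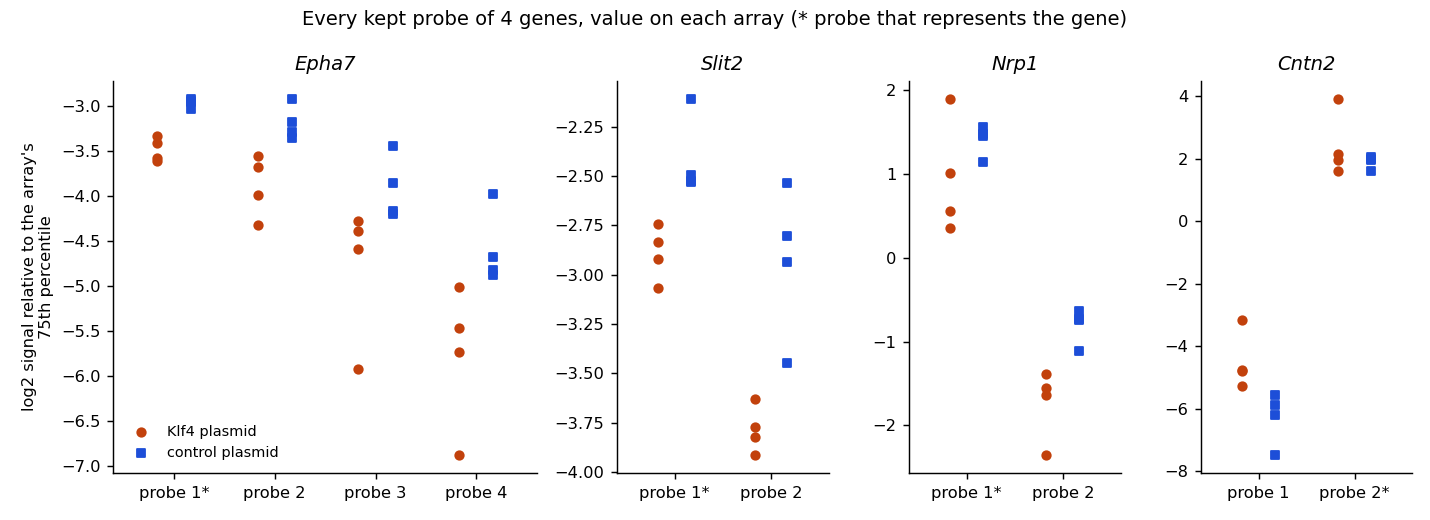
Every kept probe of Epha7, Slit2, Nrp1 and Cntn2 on each array, as log2 signal relative to the array's 75th percentile, with Klf4 arrays as circles left of control arrays as squares and an asterisk at the probe that represents the gene. All 4 Epha7 probes and both Slit2 probes are lower on every Klf4 array than on every control array, whereas the 2 Nrp1 probes and the 2 Cntn2 probes differ in whether the groups overlap.

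Efnb1, which encodes the transmembrane ligand ephrin-B1, read 0.21, 0.10, 0.44 and 0.42 in Klf4 cells, against -0.19, -0.15, -0.26 and 0.27 in control cells. Control replicate 5 lay among the Klf4 arrays, so the groups overlapped. The difference was 0.37 (SE 0.16, interval 0.01 to 0.74, adjusted p = 0.406). Epha4, a receptor for both ephrin classes, had the largest difference of the family, -0.82 (interval -1.66 to 0.03, adjusted p = 0.444). It read -4.11, -3.55, -2.44 and -4.27 in Klf4 cells, against -2.78, -2.77, -3.01 and -2.54 in control cells. Klf4 replicate 4 stood above all controls and the other 3 Klf4 arrays below them. Without that array the difference was -1.20 (adjusted p = 0.0144), and that array also had the lowest share of spots above background and the lowest array weight, 0.139. Its part in the Epha4 result beyond these values was not tested. The remaining ephrin members had intervals that spanned 0. These were the receptors Epha3 (-0.15, interval -0.51 to 0.22), Epha5 (0.18, interval -0.24 to 0.60), Ephb1 (0.18, interval -0.52 to 0.88) and Ephb2 (-0.13, interval -0.97 to 0.70), and the ligands Efna5 (-0.05, interval -0.46 to 0.36) and Efnb2 (-0.12, interval -0.55 to 0.31). Ephb3, a receptor for B-type ephrins, had no probe matched here.

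Promoter sequences, 250 bases before to 50 after the annotated start, came from RefSeq (GRCr8) and covered 24 of the 33 members with 26 promoters. Kruppel-like factors are known to bind CACCC-type elements, so 2 such elements, CCCCACCC and CCACACCC, were searched separately on both strands, and matches of the 2 could share bases. A match was found in 7 of the 26 member promoters, those of Alcam, Cntn2, Efnb1, Efnb2, Ephb3, Nrp1 and Sema6a, and in 12.2% of 33469 promoters of all genes (9.46% for CCCCACCC and 3.22% for CCACACCC). Of the matched members that were tested, Cntn2 and Efnb1 lay above 0 and Alcam, Efnb2 and Nrp1 below it. Slit1, Slit2 and Sema3a had no promoter in this source. The other genes of the same pathways, described further on, had a match in 8 of their 66 promoters. The promoters of Epha7, at chr5:47771643-47771942 on the plus strand, and Efnb1, at chrX:68297279-68297578 on the plus strand, are shown 5′ to 3′ as those of the member with the lowest p and of an ephrin ligand on the other side of 0. Capitals mark a CCCCACCC match, which begins at position -145 relative to the start in Efnb1, and the Epha7 window holds neither element.
Epha7: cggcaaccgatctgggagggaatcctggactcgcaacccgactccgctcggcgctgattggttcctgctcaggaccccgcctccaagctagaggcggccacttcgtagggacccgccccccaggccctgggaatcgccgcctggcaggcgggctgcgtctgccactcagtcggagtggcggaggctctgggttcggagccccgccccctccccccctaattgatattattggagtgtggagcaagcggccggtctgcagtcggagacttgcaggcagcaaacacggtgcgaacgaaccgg
Efnb1: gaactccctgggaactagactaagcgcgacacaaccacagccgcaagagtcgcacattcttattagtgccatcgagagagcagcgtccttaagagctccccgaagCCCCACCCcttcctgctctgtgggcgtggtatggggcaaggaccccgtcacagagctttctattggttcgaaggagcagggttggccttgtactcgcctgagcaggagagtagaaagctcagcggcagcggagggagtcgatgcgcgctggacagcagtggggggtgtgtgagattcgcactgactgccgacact

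The semaphorin family held 9 members, 6 of them tested. Sema3a, which encodes a secreted repellent of growth cones, had the largest difference of all members. It read -5.91, -4.73, -6.73 and -7.09 in Klf4 cells, against -4.35, -4.24, -3.71 and -4.09 in control cells. The groups did not overlap, and Klf4 replicate 3 lay nearest to the controls. The difference was -2.02 (SE 0.47, interval -3.09 to -0.95), with an adjusted p of 0.0573. The probe passed the above-background flag on 2 of 4 Klf4 arrays, against 4 of 4 control arrays. It thus met the filter through the control group alone, where it was higher, and the size of the difference is uncertain. With normexp the difference was -0.67 (adjusted p = 0.184). Without Klf4 replicate 3 it was -2.48 (adjusted p = 0.0056), and Sema3a passed in 4 of the 21 alternatives that kept it. Within the first scan it was -1.69 and within the second, with 1 array a group, -3.00.

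Nrp1, the neuropilin that binds Sema3a, read 0.56, 1.01, 1.90 and 0.36 in Klf4 cells, against 1.47, 1.15, 1.56 and 1.45 in control cells. Klf4 replicate 4 stood above the controls and the other 3 Klf4 arrays below them, the same arrangement as for Epha4. The difference was -0.45 (interval -1.17 to 0.26, adjusted p = 0.697). On a second Nrp1 probe all 4 Klf4 arrays, at -1.56, -1.39, -2.36 and -1.64, were below the control arrays, at -0.74, -1.11, -0.73 and -0.63, and the difference was -0.93 (adjusted p = 0.0704). Replicate 4 was thus the highest Klf4 array on the first probe and the lowest on the second. Nrp2, a neuropilin known for binding Sema3f, differed by -0.07 (interval -0.42 to 0.27) and Plxna2, a plexin that signals for semaphorins, by -0.20 (interval -0.60 to 0.21). Sema3e, the secreted ligand of Plxnd1, differed by -0.42 (interval -1.14 to 0.30). Sema6d, a transmembrane semaphorin, was on the higher side at 0.79 (interval -0.07 to 1.65, adjusted p = 0.479). It read -2.51, -3.43, -3.85 and -2.22 in Klf4 cells, against -3.36, -3.59, -3.94 and -4.27 in control cells, and its difference was 0.37 over the first scan's arrays but 2.05 between the pair of the second. Plxna1, Plxnd1 and Sema6a, 2 plexin receptors and a transmembrane semaphorin, had no probe matched here.

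Of the 4 Ig adhesion members 3 were tested. Cntn2, a contactin of early axons, read 2.15, 1.97, 3.91 and 1.61 in Klf4 cells, against 1.95, 1.98, 2.04 and 1.59 in control cells. Klf4 replicate 4 alone stood high, and the other arrays of both groups overlapped. The difference was 0.52 (interval -0.51 to 1.55, adjusted p = 0.774), and over the alternatives it ran from 0.02 to 1.15. A second and much dimmer Cntn2 probe, well above background on 3 Klf4 and 2 control arrays, differed by 1.79 without overlap (adjusted p = 0.157), so the 2 probes disagree in size. This dimmer probe met the filter through the Klf4 group alone, where it was higher. Nrcam, an L1-family adhesion molecule, differed by -0.65 (interval -1.56 to 0.26) and was at -5.10 on Klf4 replicate 4, against -3.68 to -3.33 on the other Klf4 arrays. Alcam, an adhesion molecule of retinal ganglion cell axons, differed by -0.11 (interval -0.52 to 0.30). Chl1, a close homologue of L1, had no probe matched here. Of the 10 members with over 1 kept probe, the probes of 3 disagreed in sign or by over 1 log2 unit, namely Cntn2, Epha5 and Dcc.

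**Figure D3:**
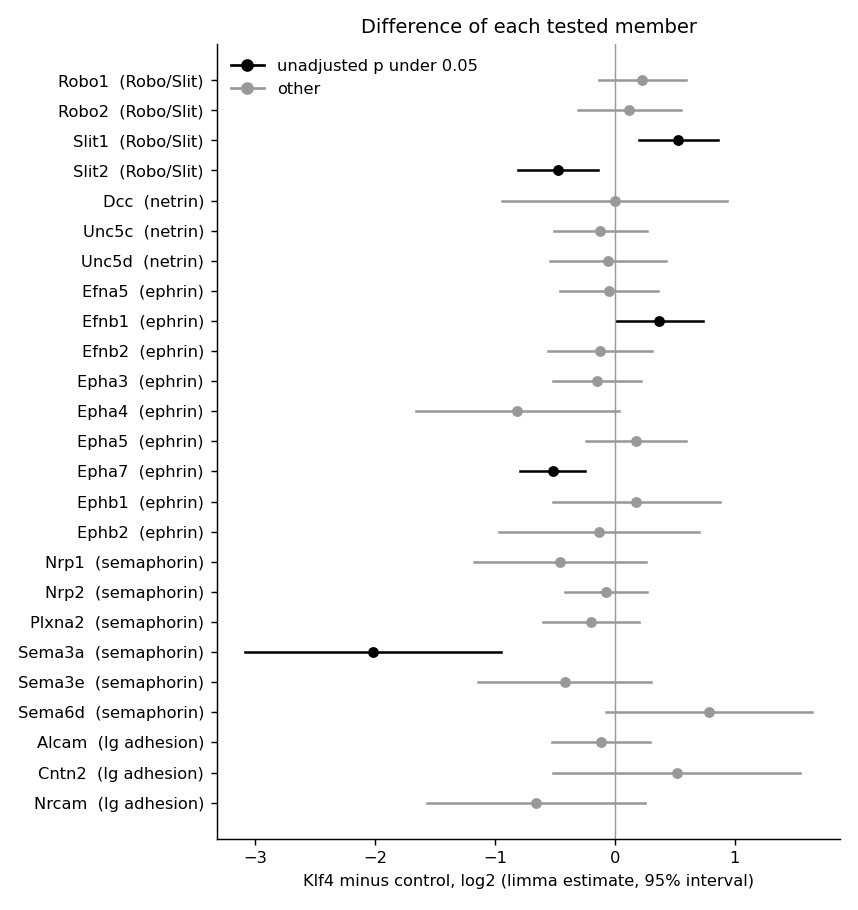
Differences of the 25 tested members, Klf4 minus control in log2, with the 95% interval of the limma fit, in black where the unadjusted p was under 0.05. The intervals of Slit1 (0.20 to 0.86) and Efnb1 (0.01 to 0.74) lie above 0, those of Slit2, Epha7 and Sema3a below 0, and the other 20 span 0.

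Klf4 arrays spread more widely than control arrays over the 25 members. The median SD over members was 0.31 on the Klf4 arrays and 0.21 on the control arrays. Leaving out Klf4 replicate 4 brought the Klf4 median SD to 0.25 and the median difference to -0.05. In that fit 2 members, Epha4 and Epha7, fell and 0 rose, against backgrounds of 1.35% and 4.07%. A p that misses the threshold does not show that a member did not differ, and the interval of Ephb2, for one, reaches -0.97.

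**Figure D4:**
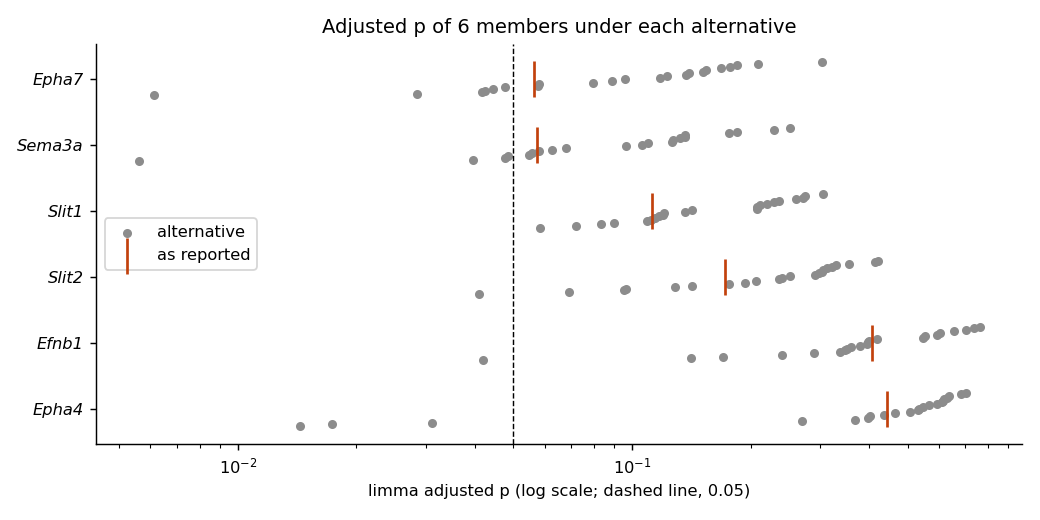
Adjusted p of 6 members under each alternative setting (grey) and as reported (red line), on a log axis with a dashed line at 0.05. Epha7 crosses the line in 6 settings and Sema3a in 4, Epha4 in 3, Slit2 and Efnb1 in 1 each, and Slit1 in 0, its lowest value being 0.0586.

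Other genes of the same pathways, 75 on a list made for this comparison, gave 54 tested genes. The list was chosen with earlier results of these data known, so its counts are no independent test against the background. Of these 11 rose and 0 fell in Klf4 cells, against the background of 3.21% higher and 0.47% lower. The list's median difference was 0.16, against -0.07 for all features. The 11 were spread over the families, with 2 of 8 tested netrin, 3 of 8 ephrin, 2 of 14 semaphorin, 2 of 7 Ig adhesion, 2 of 14 growth cone and 0 of 3 Robo/Slit genes. Differences in the other direction were present too. At an unadjusted limma p under 0.05, 16 of the 54 were higher and 8 lower, against 6.63% and 5.3% of all features. Among the 8 tested netrin genes 3 were higher and 4 lower, with a median difference of -0.28.

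Sema3b, a secreted semaphorin related to Sema3a, rose most. It read 0.85, 0.44, -0.50 and 0.91 in Klf4 cells, against -3.21, -2.98, -3.27 and -2.94 in control cells, with no overlap and a wide gap. The difference was 3.52 (SE 0.30, adjusted p = 0.000441), a ratio of 11.5. Sema3a was below the controls on all 4 Klf4 arrays and Sema3b above them on all 4. Unc5a, a repulsive netrin receptor, read 3.03, 2.91, 2.67 and 3.13 in Klf4 cells, against 1.07, 1.47, 1.11 and 1.78 in control cells. It rose by 1.58 (SE 0.19, adjusted p = 0.00253), and by 0.96 with the mean over its probes. Its relative Unc5b rose by 1.03 (adjusted p = 0.0387), while the members Unc5c and Unc5d lay near 0. With the mean over its probes Unc5b differed by 0.69 and lost its call (adjusted p = 0.216). The Unc5a promoter, shown because its gene is the netrin receptor that rose most on this list, lies at chr17:9675614-9675913 on the minus strand (GRCr8, RefSeq) and holds neither element.
Unc5a: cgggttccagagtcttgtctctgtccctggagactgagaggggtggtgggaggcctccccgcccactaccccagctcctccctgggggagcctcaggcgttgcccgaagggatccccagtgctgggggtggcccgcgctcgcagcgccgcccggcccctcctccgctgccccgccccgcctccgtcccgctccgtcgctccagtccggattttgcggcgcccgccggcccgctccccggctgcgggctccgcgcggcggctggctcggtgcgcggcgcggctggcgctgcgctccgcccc

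In the ephrin family the ligand gene Efna1 rose by 1.15 (adjusted p = 0.0406) and the receptor genes Ephb4 by 1.02 (0.0308) and Epha2 by 0.72 (0.0271). Plxna3, a plexin co-receptor of class 3 semaphorins, rose by 0.71 (0.0429). Among adhesion genes Nfasc, the L1-family molecule neurofascin, read -2.19, -2.69, -1.60 and -1.87 in Klf4 cells, against -3.94, -3.47, -3.52 and -3.89 in control cells. It rose by 1.62 (SE 0.24, adjusted p = 0.00746), and by 0.995 with the mean over its probes. L1cam, the founding L1-family molecule, rose by 1.16 (0.0256). Of the growth cone genes Gap43, a growth-associated phosphoprotein, rose by 1.09 (0.0297), and Limk1, a kinase that inactivates cofilin, by 0.85 (0.0379). Sema3b and Unc5a kept their call in all 22 alternatives and Nfasc in 21. Each of the other 8 lost its call without control replicate 3 and without control replicate 4. Some of them also lost it without other arrays or with other processing. The count of 11 was 4, 6, 10 and 5 without Klf4 replicates 2, 3, 4 and 5, and 4, 3, 3 and 6 without control replicates 2, 3, 4 and 5.

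**Figure D5:**
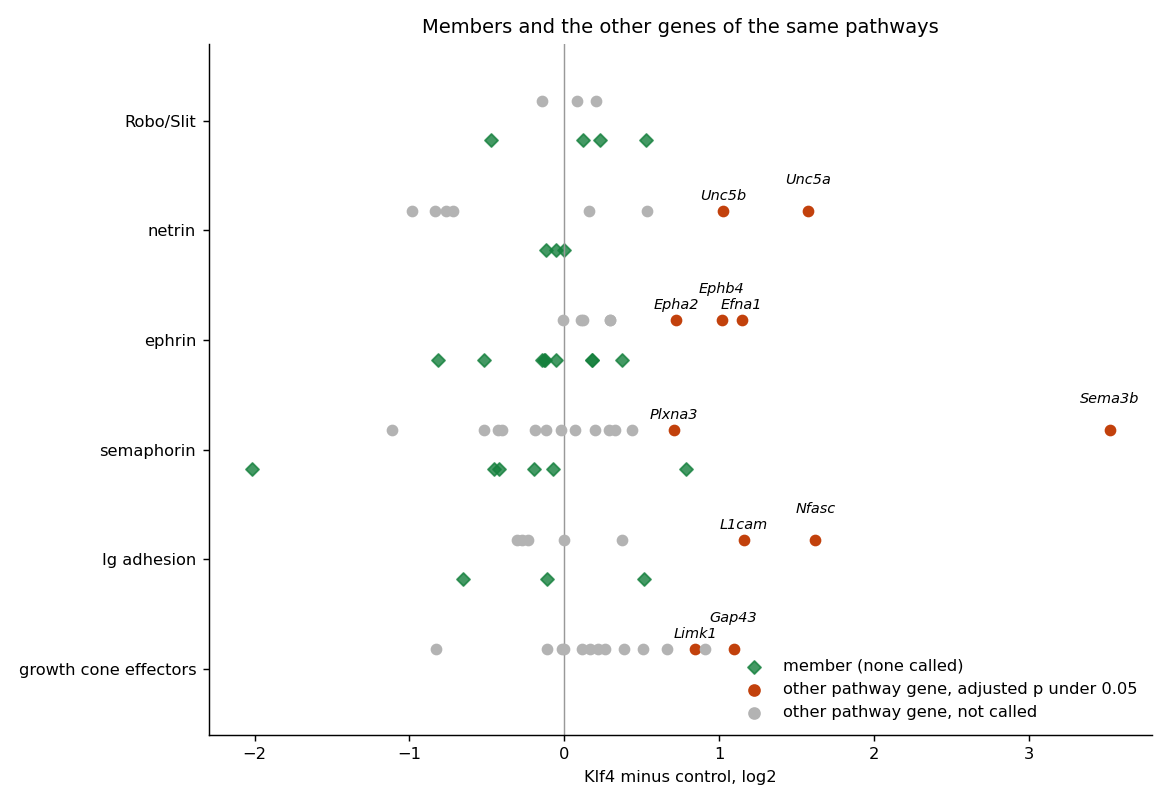
Differences, Klf4 minus control in log2, of the 25 tested members (diamonds) and of the 54 other tested pathway genes (circles, red where the adjusted p was under 0.05), by family. The 11 called genes all lie above 0, from Plxna3 at 0.71 to Sema3b at 3.52, while the members run from -2.02 (Sema3a) to 0.79 (Sema6d).

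Of 12 retinal ganglion cell markers 8 were tested and 3 rose in Klf4 cells, namely Stmn2 by 3.38, Tubb3 by 1.86 and Nefm by 1.89, genes of the neuronal cytoskeleton that many young neurons express. Their list's summed signal, in units of the array's 75th percentile, was 12.3 to 22 in Klf4 cells and 3.00 to 4.29 in control cells. The sum adds unlogged signals and so follows mostly Stmn2 and Tubb3, the brightest of the list. It says little about the 5 tested markers that were not called, among them Nefh (difference 0.22) and Ebf3 (-0.24). The ganglion cell transcription factor genes Pou4f2 and Isl1 differed by -0.25 (adjusted p = 0.648) and 0.12 (0.984), and the ganglion cell RNA-binding protein gene Rbpms by 0.94 (0.208). Without Klf4 replicate 4 the Rbpms difference was 1.26 (adjusted p = 0.00504), and Rbpms also passed with array weights (1.24, adjusted p = 0.000406) and without both arrays numbered 4 (1.20, adjusted p = 0.0209). These settings all leave out or down-weight Klf4 replicate 4 (array weight 0.139). That array read -2.72, against -1.61 to -1.24 on the other Klf4 arrays and -2.89 to -2.39 on the control arrays. A dimmer Rbpms probe was above background on 3 of 4 Klf4 arrays and 0 of 4 control arrays (means -4.98 and -6.89), and so met the filter through the Klf4 group alone. Sncg, Thy1 and Nefl were too dim for the filter and Pou4f1 had no probe matched here.

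Other lists held called markers too. The endothelial genes Tek and Esam rose, Tek by 2.38 and Esam by 3.35 (measured means -4.09 in Klf4 cells and -7.44 in control cells). The Esam probe was above background on 3 of 4 Klf4 arrays and 0 of 4 control arrays. It thus met the filter through the Klf4 group alone, where it was higher, and the size of its difference is uncertain. Of the 7 listed endothelial genes 5 were tested, with summed signals of 93.7 to 160.6 in Klf4 cells and 98.9 to 118.4 in control cells. The other tested genes of this list, Kdr, Cdh5 and Vwf, differed by 0.03, -0.01 and 0.13. A bound on the Esam difference, taken against the lowest signal that was well above background on each control array, was 1.96. Esam lost its call with normexp (difference 1.02, adjusted p = 0.0876) and over the arrays of the first scan (adjusted p = 0.0836). In the pericyte and fibroblast list (5 of 8 tested) Col1a1 rose by 1.36 and Cspg4 by 1.62, with sums of 9.76 to 12.3 in Klf4 cells and 5.90 to 8.46 in control cells. Col1a1 was the brightest gene of that list in Klf4 cells (mean 2.76). The list's other tested genes lay below 0, at -0.47 for Col1a2, whose groups did not overlap, -0.86 for Pdgfrb and -0.11 for Acta2. The list's median difference was -0.11. In the microglial list (6 of 7 tested) C1qb rose by 1.04, with sums of 5.89 to 6.68 in Klf4 cells and 5.13 to 7.62 in control cells, and in the astrocyte list (5 of 6 tested) S100b rose by 3.80 (adjusted p = 0.0318), with sums of 0.766 to 0.957 in Klf4 cells and 0.568 to 0.930 in control cells. The S100b probe was above background on 4 of 4 Klf4 arrays and 2 of 4 control arrays, and so met the filter through the Klf4 group alone. The S100b difference was 1.85 with normexp and 2.64 with the mean over probes. S100b passed in 10 of the 21 alternatives that kept it and lost its call without any 1 of the 8 arrays other than control replicate 3 (adjusted p = 0.0526 to 0.109). Ptf1a, an amacrine cell factor, rose by 0.68 and Vim, a progenitor and glial filament gene, by 1.14, whereas Crx, a photoreceptor factor, fell by 0.84. Below 0 lay 5 of 9 tested amacrine and horizontal genes (median -0.18), among them Tfap2b at -0.63 and Lhx1 at -0.58. So did 4 of 12 progenitor and glial genes (median 0.12), among them Rax at -0.50 without overlap. In the astrocyte list 3 of 5 lay below 0 (median -0.09), and in the microglial list 3 of 6 (median 0.07). Ptf1a passed in 10 of 22 alternatives, Crx in 11, C1qb in 16 and Vim in 19. The sums of the lists that hold Ptf1a, Vim and Crx overlapped between groups, at 125 to 153 in Klf4 cells and 120.2 to 164 in control cells for amacrine and horizontal cells, 77.7 to 89.4 in Klf4 cells and 68.0 to 86.8 in control cells for progenitors and glia, and 100.6 to 205.8 in Klf4 cells and 152.4 to 202.8 in control cells for photoreceptors and bipolar cells. Each sum adds unlogged signals, so bright genes dominate it. Prox1 was the brightest amacrine and horizontal gene (means 6.91 in Klf4 and 6.90 in control cells). Otx2 was so for photoreceptors and bipolar cells (6.83 and 7.27) and Kdr for endothelium (6.70 and 6.68). An overlap of sums thus says little about a list's other genes. All 8 tested photoreceptor and bipolar genes lay below 0, as did 61% of all features. The part of these cell types in the results for guidance genes was not tested.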

How the data were processed

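Total RNA of sorted retinal cells was hybridised with Cy3 to 8 single-colour Agilent arrays on 1 slide. The deposited intensity values come, per the file headers, from Feature Extraction 10.7.3.1 (array design on rn4), after background subtraction and detrending, with no scaling across arrays. Deposited flags (unit other) mark control, outlier, saturated and above-background spots. The authors also deposited a table of log2 values with 45735 rows, with no method stated in the sources at hand. Its columns have a median of 7.54 and each correlated with its own array at r 0.994 to 1.00 across probes, so it is log2 signal in the direction of the arrays, with columns brought to a common distribution and genes not centred.

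From the intensities, control and outlier spots were left out, spots of a probe averaged, log2 taken and each array's 75th percentile over probes subtracted. Probes flagged as well above background on 3 or more of the 4 arrays of either group were kept, and the brightest kept probe represented a gene. Of 45598 gene probes 21109 had 1 symbol through RefSeq (GRCr8) accessions, 0 several and 24489 none. Groups were compared with limma 3.58.1 (R 4.3.3; lmFit, eBayes, two-sided, Benjamini-Hochberg over 29984 genes and features), tested on simulated data beforehand. Figures used matplotlib 3.10.9.

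Members, pathway and marker lists were chosen with earlier results of these data known. All members were to be named, those with an unadjusted p under 0.05, an adjusted p under 0.05 or a log2 difference of at least 1 with every array's value, and some others are given so because 1 array or a second probe stood apart. Of the pathway list the 20 largest called differences were to be named, of which there were 11. Of the markers those called were named, with Pou4f2, Isl1 and Rbpms. Alternatives were normexp (offset 50, on median spot signals), quantile and median scaling, 2 filters, the mean over probes, the authors' log2 values, blocks for replicate number, scan and slide row, the first scan alone, array weights, and arrays left out. The 75th percentile over all spots and the fit over single probes were chosen after seeing the data. Arrays give no counts, so their number limits the precision. Same-numbered arrays deviated together with r of 0.36, 0.24, 0.06 and 0.55 for numbers 2 to 5, not over 0.1 in every pair, and the numbers were not taken as pairs.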

Additional observations from a re-analysis of the deposited data

Results flagged for a closer look

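Within 6 of 72 groups of 4 arrays examined, 1 array stood far from the other 3, where chance gives about 1 in 20 groups. For Dcc, control replicate 5 read -0.64, against -1.83 to -1.77 on the other controls. For Efnb2, Klf4 replicate 4 read -1.18, against -0.51 to -0.39 on the other Klf4 arrays, and control replicate 2 read -0.41, against -0.55 to -0.53 on the other controls. For Sema3e, control replicate 3 read -2.98, against -3.76 to -3.72. For Slit2, control replicate 2 read -2.11, against -2.53 to -2.50, and the Slit2 difference was -0.37 without it. For Unc5d, control replicate 5 read -3.40, against -2.71 to -2.57. Of these arrays, control replicate 5 came from the second scan and Klf4 replicate 4 had no in-range quality result; the cause was not tested.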

How the results depend on the processing

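Arrays of 4 a group limit what can be called, and dim probes (Sema3a, Ntn1, Ntng1) limit the sizes. The count of 961 higher and 141 lower over all genes was 632 and 47 in the first scan alone, 1846 and 1269 with array weights, 255 lower with the scan as a block, 93 lower with array medians, 70 lower without a filter, 734 and 198 with the percentile over all spots, and 604 to 1221 higher and 32 to 406 lower with 1 array left out. The last scaling moved the median of all features to -0.16 and that of the members to -0.20, and the share of calls that were higher was 87.2% as reported and 59.3% with array weights, 75.1% without Klf4 replicate 4. Members called lower, 0 as reported, were 2 with quantile scaling and with the authors' values, 1 each with array medians, with probes above background on all arrays, with the scan as a block and without both arrays numbered 4, and 0 to 2 with 1 array left out. With array weights 3 were lower and 1 higher. Pathway genes called, 11 higher and 0 lower as reported, were 5 higher with the percentile over all spots and without both arrays numbered 4, 4 higher without a filter and in the first scan alone, 3 to 10 higher and 0 to 1 lower with 1 array left out, and 1 lower each with quantile scaling, the authors' values and probes above background on all arrays, and 6 lower with array weights. Markers called, 11 higher and 1 lower as reported, were 7 higher in the first scan alone, 7 to 10 higher and 0 to 3 lower with 1 array left out, 2 lower with normexp, 4 lower with the scan as a block, 10 lower with array weights, and 0 lower without a filter, in the first scan alone, with the slide row as a block and without both arrays numbered 4. The cause of these moves was not tested.

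With a replicate block the calls over all genes were 841 up and 101 down, 0 members and 9 pathway genes were called, and the adjusted p of Epha7 was 0.0962. Every Klf4 array but replicate 4 correlated best with the control of its own number, which is a hint from the data and not from the design.

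Signs turned only for uncalled genes. Dcc was at 0.0727 with quantile scaling, 0.0689 with the authors' values, 0.0327 with array medians, 0.31 with the mean over probes, 0.27 with array weights and 0.21 without both arrays numbered 4. Epha5 was at -0.0213 with the mean over probes and -0.0084 without both arrays numbered 4, and Nrp2 at 0.0324 in the first scan alone. With array weights Efnb2 was at 0.0328, Ephb2 at 0.115 and Unc5c at 0.0112. Without both arrays numbered 4 Efnb2 was at 0.0472, Ephb1 at -0.071, Ephb2 at 0.171, Robo2 at -0.0627, Unc5d at 0.0289 and Isl1 at -0.0508. With 1 array left out Dcc ran from -0.31 to 0.30, Efnb2 from -0.20 to 0.0628, Ephb2 from -0.37 to 0.16, Ephb1 from -0.0613 to 0.39, Unc5d from -0.24 to 0.0359, Isl1 from -0.27 to 0.65, Efna5 from -0.19 to 0.0141, Klf4 from -0.15 to 0.54 and Alcam from -0.20 to 0.0218.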
